A study of Mus musculus with 10 samples.

Results

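The genes examined were 10 that mark or guide TH2 cells. Il1rl1, Il17rb and Crlf2 encode receptors for the alarmins IL-33, IL-25 and TSLP. Ccr4, Ccr8 and Ptgdr2 encode trafficking receptors, Il4ra and Cd200r1 encode receptors for IL-4 and CD200, and Ecm1 and Asb2 encode proteins associated with the TH2 programme. They were taken by symbol, as the rows of the count table whose Ensembl identifier maps to these names. No value entered that rule, but earlier results of these data were known when the genes were chosen. All 10 were found among the 49671 genes of the table. Enough reads for the test between diets were present for 8 of them, among 13699 genes tested, and Il17rb and Ptgdr2 were too low.

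RNA sequencing counts came from murine helper T cells of the allergic TH2 type, grown from naive CD4+ T cells and harvested on day 5 of polarisation. The vitamin D-deficient group held 7 libraries, from C57BL/6 mice bred and reared without ultraviolet light on a diet free of vitamin D metabolites. The regular group held 3 libraries, from C57BL/6 mice whose diet contained 400 IU of vitamin D3 per kg. The genotype label was WT in both groups, no other agent was applied, and second-generation offspring were used. Batch 1 held 5 deficient and 2 regular libraries, and batch 2 held deficient libraries 6 and 7 and regular library 3. Whether each library is a mouse of its own is not stated. The p-values set the difference between groups against the spread among these libraries only, and that spread may be technical.

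Alarmins are cytokines released by damaged or stimulated epithelium, and their receptors let TH2 cells, group 2 innate lymphoid cells and mast cells respond to that tissue signal. The chemokine receptors CCR4 and CCR8 direct TH2 cells towards inflamed skin and airway, and the prostaglandin D2 receptor encoded by Ptgdr2 does so towards sites of mast cell activation. IL-4 acts through the chain encoded by Il4ra to activate STAT6, which in turn raises GATA3, the transcription factor that sets the TH2 programme.

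Totals ranged from 7029207 to 13433276 counts in deficient libraries and from 5800698 to 6462146 in regular libraries, so 1 count was worth between 0.0744 and 0.172 CPM (counts scaled to the library total). Differences between the groups were broad: with edgeR's quasi-likelihood test, 58.0% of the genes tested passed in either direction at a Benjamini-Hochberg adjusted p under 0.05, 29.4% higher and 28.6% lower in deficient cells. Deficient libraries 5, 6 and 7 stood apart from the other 4, with summed B cell markers of 292 to 329 CPM against 55.2 to 83.7 CPM, and 1 of the 3, library 5, is a batch 1 library. The T cell and TH2 markers Cd3d, Cd4, Gata3, Il4, Il5 and Il13 were read in every library, with Cd3d at 278 CPM on average in deficient and 286 CPM in regular cells, and Cd4 lower in deficient cells at 335 CPM, against 723 CPM in regular cells. Gene lists for other cells also differed. The summed level of 8 cytotoxic markers was 126 to 421 CPM in deficient and 18.6 to 37.1 CPM in regular libraries, with 6 of 7 tested higher. The 4 TH1 markers summed to 147 to 403 CPM in deficient and 13.8 to 21.7 CPM in regular libraries, with 4 of 4 higher. The summed level of 10 mast cell and basophil markers was 25.3 to 78.5 CPM in deficient and 18.4 to 23.4 CPM in regular libraries, with 4 of 8 tested higher and Kit below 1 CPM in every library. For 7 B cell markers it was 55.2 to 329 CPM in deficient and 12.8 to 103 CPM in regular libraries, with 2 of 7 higher, and the 3 highest libraries were deficient libraries 5 to 7. The 103 CPM was that of regular library 3, the regular library of batch 2, against 16.2 and 12.8 CPM in regular libraries 1 and 2. The 6 markers of group 2 innate lymphoid cells summed to 108 to 176 CPM in deficient and 161 to 174 CPM in regular libraries, with 2 of 4 tested higher and 1 lower, and Arg1 and Kit under 1 CPM throughout. Regulatory T cell markers summed to 908 to 1050 CPM in deficient and 1330 to 1370 CPM in regular libraries, with 1 of 5 higher and 2 lower, and Foxp3, which defines those cells, had 11 counts over all deficient and 1 over all regular libraries. Macrophage and dendritic cell markers stayed between 5.55 and 9.97 CPM in deficient and 16.0 and 18.3 CPM in regular libraries, with 1 of 4 higher and 1 lower, and 5 of 9 lay below 1 CPM everywhere. Eosinophil markers summed to 3.05 to 4.55 CPM in deficient and 0.172 to 0.464 CPM in regular libraries, nearly all of it Siglecf, the 1 member tested. The part of these markers in the results on the receptors was not tested, except that fits without deficient libraries 5 to 7 are given beside them. Regular library 3 is then alone in batch 2 and is taken up by the batch term. These fits so compare deficient libraries 1 to 4 with regular libraries 1 and 2.

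Most of the 10 genes were lower in the deficient cells. Of the 8 genes tested, 7 were lower and 1, Crlf2, was higher, against 28.6% lower and 29.4% higher over all genes tested. By the fitted log2 fold change, Il1rl1, Ecm1, Asb2, Ccr8 and Ccr4, 5 of 8 genes, were lower by at least 2-fold, against 8.71% of all genes. Ccr4 was near that limit, at 1.97-fold by its mean CPM and at a log2 fold change of -0.98 with scaling by library totals and -0.96 with no count filter. Il1rl1, Ecm1 and Asb2 were lower by at least 4-fold, against 2.23% of all genes. The deficient and regular libraries did not overlap in CPM for 7 of the 8 genes, 6 of them with the deficient libraries lower and 1 with them higher. Over all genes tested, 50.8% did not overlap, 21.4% with the deficient libraries lower. The median log2 fold change of the 8 genes was -1.09, beside 0.02 over all genes tested. In these bulk samples, fewer cells of a type and less RNA per cell cannot be told apart.

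**Figure D1:**
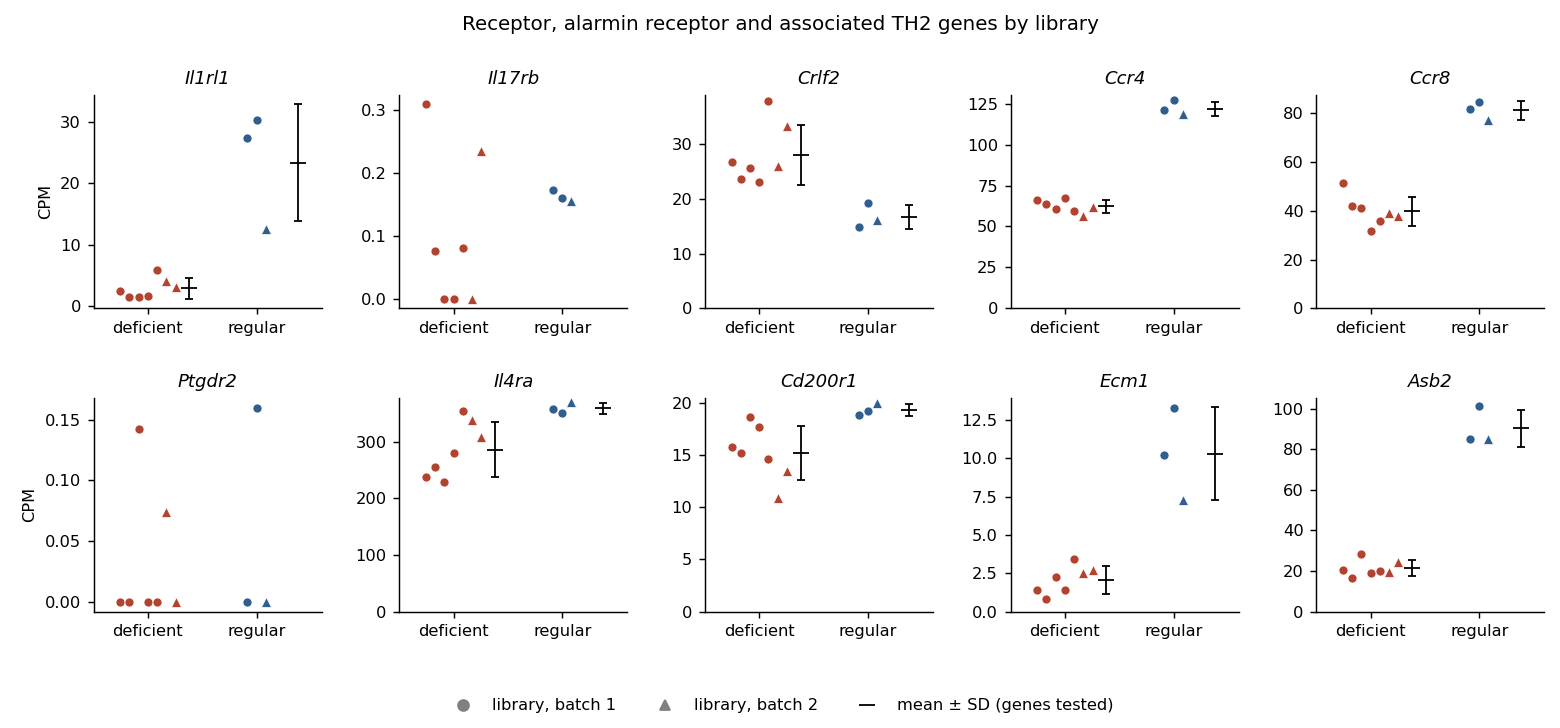
Level of each of the 10 genes in CPM (vertical axis) in the 7 deficient libraries (left, red) and the 3 regular libraries (right, blue), with circles for batch 1 and triangles for batch 2; bars give mean ± SD for the 8 genes tested. Deficient points lie below all regular points for Il1rl1, Ccr4, Ccr8, Cd200r1, Ecm1 and Asb2 and above them for Crlf2; for Il4ra 6 deficient points lie below the regular ones and 1 among them, while Il17rb and Ptgdr2 rest on 0 to 4 counts per library.

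Promoters were examined because 7 of the 8 genes moved the same way; the windows printed are those with a GATA match and, beside them, that of Crlf2, which moved the other way. RefSeq gave windows of 300 bases on GRCm38.p6, with 250 bases before and 50 after each start site, for 9 of the 10 genes and 11 start sites; Cd200r1 was not among them. Searched on both strands, the GATA motif (AGATA or TGATA followed by A or G) was present in 4 of these 11 windows, belonging to Il1rl1, Ccr8 and Ecm1. That share is near the 29.8% with a match over all 32851 windows. Below, capitals mark those matches, as read on the gene's strand, and lower case is the rest.
Il1rl1 start site 1, chr1:40429320-40429619, plus strand: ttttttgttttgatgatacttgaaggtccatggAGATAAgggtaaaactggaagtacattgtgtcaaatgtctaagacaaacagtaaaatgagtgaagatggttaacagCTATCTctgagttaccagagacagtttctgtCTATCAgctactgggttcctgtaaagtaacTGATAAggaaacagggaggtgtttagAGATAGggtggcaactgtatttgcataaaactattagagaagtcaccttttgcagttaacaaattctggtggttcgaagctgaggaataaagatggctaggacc
Il1rl1 start site 2, chr1:40439379-40439678, plus strand: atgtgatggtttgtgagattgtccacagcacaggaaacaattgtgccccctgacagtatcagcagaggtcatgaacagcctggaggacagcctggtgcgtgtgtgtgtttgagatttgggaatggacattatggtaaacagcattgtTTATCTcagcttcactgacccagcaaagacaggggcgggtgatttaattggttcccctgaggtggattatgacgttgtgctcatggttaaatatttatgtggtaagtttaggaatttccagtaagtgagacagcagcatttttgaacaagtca
Ccr8, chr9:120091883-120092182, plus strand: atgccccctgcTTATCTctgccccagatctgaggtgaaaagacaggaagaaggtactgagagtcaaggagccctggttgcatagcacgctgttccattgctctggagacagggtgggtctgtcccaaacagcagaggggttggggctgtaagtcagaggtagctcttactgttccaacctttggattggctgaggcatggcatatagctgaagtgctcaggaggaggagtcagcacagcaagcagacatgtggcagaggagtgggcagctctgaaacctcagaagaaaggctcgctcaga
Ecm1, chr3:95739520-95739819, minus strand: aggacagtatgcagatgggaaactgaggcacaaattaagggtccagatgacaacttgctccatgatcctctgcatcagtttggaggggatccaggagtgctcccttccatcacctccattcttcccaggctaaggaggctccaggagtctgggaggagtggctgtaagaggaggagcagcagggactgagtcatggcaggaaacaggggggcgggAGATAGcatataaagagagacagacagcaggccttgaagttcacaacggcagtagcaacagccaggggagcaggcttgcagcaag
Crlf2, chr5:109558944-109559243, minus strand: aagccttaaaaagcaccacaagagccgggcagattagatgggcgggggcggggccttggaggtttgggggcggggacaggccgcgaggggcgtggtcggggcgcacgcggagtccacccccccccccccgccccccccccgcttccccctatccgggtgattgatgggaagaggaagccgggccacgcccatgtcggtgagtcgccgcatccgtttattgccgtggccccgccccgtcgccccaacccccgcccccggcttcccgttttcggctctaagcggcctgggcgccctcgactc

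The window at the first start site of Il1rl1 held 5 GATA matches, whose first bases lay at -217, -141, -110, -80 and -54 from the start. Windows with 5 or more matches made up 18 of the 32851, or 0.0548%. The limit of 5 was taken from the count in this window, the highest of the 11, so the share is descriptive and not a test. The second start site of Il1rl1 had 1 match at -103, Ccr8 had 1 at -239 and Ecm1 had 1 at -35. The Crlf2 window, with 71.7% G and C, had no match, and neither did those of Asb2, Ccr4, Il4ra, Il17rb and Ptgdr2. None of the 11 windows held the STAT6 motif TTCNNNNGAA (6.95% of all windows), the STAT5 motif TTCNNNGAA (8.3%), the T-box motif AGGTGTGA (1.28%) or a vitamin D receptor repeat (0.0396%), searched as a pair of half-sites, each AGGTCA or AGTTCA or GGGTCA or GGTTCA, separated by 3 bases. A match is a run of letters and not a shown binding site.

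Il1rl1 encodes ST2, the receptor chain that binds IL-33, and had the largest fold change of the 8 genes. Its 7 deficient libraries ran from 1.36 to 5.85 CPM with a median of 2.40 CPM, against 27.4, 30.3 and 12.5 CPM in regular libraries 1 to 3. All 7 deficient libraries lay below the lowest regular one, which was that of batch 2, and deficient libraries 5, 6 and 7 were the 3 highest of their group at 5.85, 4.02 and 3.05 CPM. The mean was 2.82 ± 1.65 CPM in deficient cells (SD, n = 7) and 23.4 ± 9.53 CPM in regular cells (SD, n = 3), which is 8.30-fold lower. The log2 fold change was -3.09 (SE 0.45, edgeR adjusted p = 0.000367). It was -3.57 within batch 1, -1.85 within batch 2 and -4.14 without deficient libraries 5 to 7, and passed in each. The gene (ENSMUSG00000026069) lies at chromosome 1, 40429570 to 40465415 of GRCm38, on the plus strand.

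Neighbours of Il1rl1 on chromosome 1 belong to the same receptor family and were partly lower too. The gene stands in a cluster of 6 IL-1 receptor family genes on the plus strand, and ends 136 bases before Il18r1 (40465552 to 40500854), which encodes the IL-18-binding receptor chain. Il18r1 averaged 7.33 ± 2.67 CPM in deficient and 31.8 ± 5.32 CPM in regular cells (log2 fold change -2.22, adjusted p = 3.83e-05). Its partner chain Il18rap averaged 7.77 ± 1.61 CPM in deficient and 20.6 ± 2.78 CPM in regular cells (-1.52, adjusted p = 5.86e-07). Within the deficient group their order differed from that of Il1rl1: library 5 was the highest for Il1rl1 and the lowest for Il18r1, at 3.21 CPM against 11.1 CPM in library 1. Il1r2, the decoy receptor for IL-1, averaged 3.90 ± 1.17 CPM in deficient and 11.3 ± 1.66 CPM in regular cells (-1.60, adjusted p = 2.24e-05). Il1rl2, the IL-36 receptor chain between them, had 2.42 ± 0.842 CPM in deficient and 1.98 ± 0.537 CPM in regular cells (0.20, adjusted p = 0.632). Il1r1, the signalling IL-1 receptor, had 55 counts over the deficient and 4 over the regular libraries (1.52, adjusted p = 0.118). Of the 7 other members of the family listed, 5 were tested, 3 were lower and 0 were higher, beside 28.6% lower and 29.4% higher over all genes, with a median log2 fold change of -1.52. That list leaves out the family genes Il1rap and Sigirr, which were placed with the partner chains. Il1rap was higher (0.33, edgeR adjusted p = 0.0109) and Sigirr did not pass (-0.15, adjusted p = 0.0533).

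**Figure D2:**
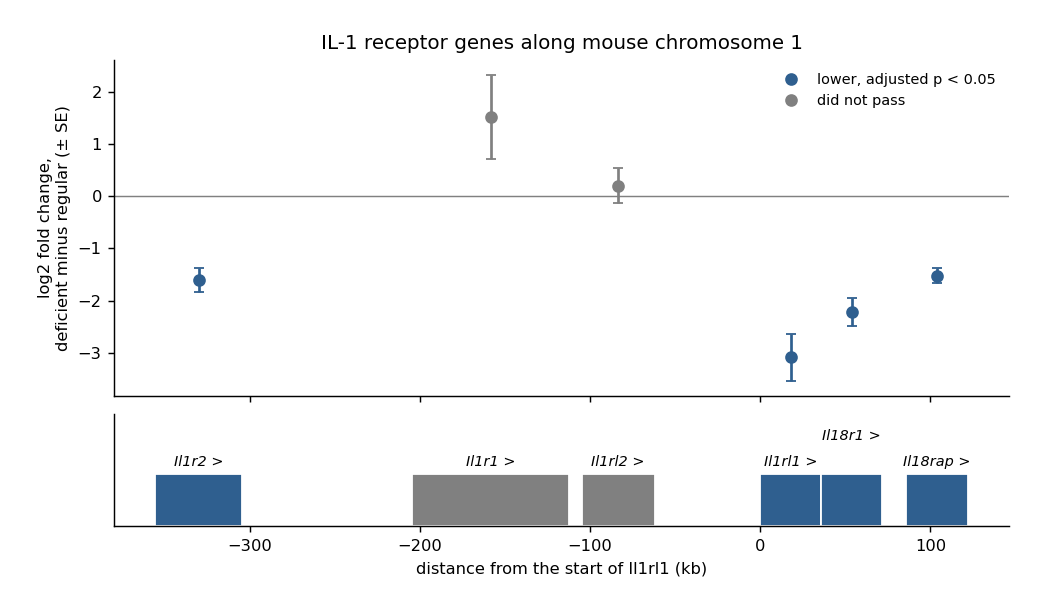
Log2 fold change of deficient over regular cells (vertical axis, bars ± SE) of the 6 IL-1 receptor family genes, placed by distance in kb from the start of Il1rl1 (horizontal axis), with the gene bodies to scale below. Il1rl1 (-3.09), Il18r1 (-2.22) and Il18rap (-1.52), which are next to each other, and Il1r2 (-1.60) at the far end were lower (blue), and Il1r1 and Il1rl2 between them did not pass (grey).

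Crlf2 encodes the TSLP-binding chain of the TSLP receptor and was the gene of the 8 that was higher. Deficient libraries ran from 23.1 to 37.9 CPM with a median of 26.1 CPM, against 14.8, 19.2 and 16.1 CPM in regular libraries. Every deficient library lay above every regular one, and libraries 5 and 7 were the highest at 37.9 and 33.4 CPM. Means were 28.1 ± 5.50 CPM in deficient cells (SD, n = 7) and 16.7 ± 2.27 CPM in regular cells (SD, n = 3), a log2 fold change of 0.66 (SE 0.174, edgeR adjusted p = 0.00536). It was 0.59 in batch 1, 0.81 in batch 2 and 0.45 without deficient libraries 5 to 7, and passed in each. The gene (ENSMUSG00000033467) lies at chromosome 5, 109554709 to 109558993, on the minus strand. Il7r, the chain with which CRLF2 forms the TSLP receptor, went the other way, at 113 ± 25.2 CPM in deficient and 155 ± 6.04 CPM in regular cells (-0.54, adjusted p = 0.0142), with overlapping libraries.

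Il17rb encodes the IL-25-binding receptor chain and was close to undetected in both groups. The 7 deficient libraries held 4, 1, 0, 0, 1, 0 and 2 counts, and the 3 regular libraries held 1 each. Pooled over libraries this was 0.0995 CPM in deficient cells (95% Poisson interval 0.0430 to 0.196, counting error only) and 0.162 CPM in regular cells (0.0334 to 0.474). The ratio of deficient to regular was 0.614 with an interval of 0.147 to 3.59, so no difference was detectable at this depth. Without the count filter its log2 fold change was -0.61 (edgeR adjusted p = 0.71). The gene (ENSMUSG00000015966; chromosome 14, 29996135 to 30008896, minus strand) overlaps exons of Actr8 on the opposite strand, which makes its few counts uncertain, since the strand setting of the counting is not given in the sources used here. Its partner chain Il17ra was read at 33.8 ± 2.58 CPM in deficient and 42.3 ± 4.15 CPM in regular cells (-0.41, adjusted p = 0.00108).

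Both chemokine receptor genes of the TH2 group were lower to nearly the same degree. Ccr4, whose product binds CCL17 and CCL22, ran from 56.1 to 67.6 CPM in deficient libraries with a median of 61.8 CPM, against 121, 127 and 119 CPM in regular libraries. Within each group the libraries lay close together, and a wide gap separated the groups. Means were 62.3 ± 3.94 CPM in deficient cells (SD, n = 7) and 122 ± 4.26 CPM in regular cells (SD, n = 3), a log2 fold change of -1.07 (SE 0.0614, edgeR adjusted p = 1.81e-09). It was -1.06 in batch 1, -1.08 in batch 2 and -1.03 without deficient libraries 5 to 7. The gene (ENSMUSG00000047898) lies at chromosome 9, 114490316 to 114504916, on the minus strand.

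Ccr8, whose product binds CCL1 and in mice CCL8, ran from 31.9 to 51.2 CPM in deficient libraries with a median of 39.2 CPM, against 81.7, 84.8 and 77.2 CPM in regular libraries. The groups did not overlap, and deficient library 1 was the highest of its group. Means were 39.8 ± 6.00 CPM in deficient cells (SD, n = 7) and 81.2 ± 3.82 CPM in regular cells (SD, n = 3), a log2 fold change of -1.11 (SE 0.123, edgeR adjusted p = 6.18e-06). It was -1.13 in batch 1, -1.06 in batch 2 and -1.09 without deficient libraries 5 to 7. The gene (ENSMUSG00000042262; 120092114 to 120094906, plus strand) lies on chromosome 9 like Ccr4.

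Ptgdr2 encodes CRTH2, the prostaglandin D2 receptor that marks human TH2 cells, and was almost unread here. The deficient libraries held 0, 0, 1, 0, 0, 1 and 0 counts and the regular libraries 0, 1 and 0. Sums of 2 and 1 counts allow no fold change. The gene (ENSMUSG00000034117; chromosome 19, 10937160 to 10942511, plus strand) shares 37.8% of its 50-base stretches with Ccdc86, which overlaps it on the opposite strand, so reads from this shared part may have been lost or counted elsewhere. Ptgdr, the other prostaglandin D2 receptor gene, held 2 counts over the deficient and 2 over the regular libraries.

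Il4ra, the signalling chain of the IL-4 and IL-13 receptors, was the most abundant of the 10 genes in CPM and had the smallest fold change of the 8 tested. The deficient libraries ran from 228 to 354 CPM with a median of 279 CPM, against 357, 351 and 370 CPM in regular libraries. The groups overlapped: deficient library 5, the highest of its group, lay within the regular range, and the other 6 lay below it. Means were 286 ± 49.3 CPM in deficient cells (SD, n = 7) and 359 ± 9.67 CPM in regular cells (SD, n = 3), a log2 fold change of -0.41 (SE 0.114, edgeR adjusted p = 0.00939). It was -0.48 in batch 1, -0.25 in batch 2 and -0.59 without deficient libraries 5 to 7; without regular library 1 it was -0.36 and no longer passed (adjusted p = 0.0532, range over all alternatives 5.25e-07 to 0.0532). The gene (ENSMUSG00000030748; chromosome 7, 125552120 to 125579474, plus strand) shares 8.44% of its 50-base stretches with Gm44876 on the opposite strand.

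Cd200r1 encodes the inhibitory receptor for CD200 on myeloid and TH2 cells. Its deficient libraries ran from 10.9 to 18.6 CPM with a median of 15.2 CPM, against 18.8, 19.2 and 20.0 CPM in regular libraries. The groups did not overlap, but the gap was narrow, since deficient library 3 at 18.6 CPM came next to regular library 1 at 18.8 CPM. Means were 15.2 ± 2.60 CPM in deficient cells (SD, n = 7) and 19.3 ± 0.591 CPM in regular cells (SD, n = 3), a log2 fold change of -0.47 (SE 0.127, edgeR adjusted p = 0.00526). It was -0.79 in batch 2 but did not pass in batch 1 (-0.31, adjusted p = 0.0755), without regular library 3 (-0.32, adjusted p = 0.0791) or in the fit that omitted deficient libraries 5 to 7 (-0.28, adjusted p = 0.0942). Cd200r1 drew its diet difference from batch 1 libraries in all 3 of those fits, so they are not separate results. Over all alternatives its adjusted p ranged from 0.0029 to 0.0942. The gene (ENSMUSG00000022667; chromosome 16, 44765736 to 44794978, plus strand) shares 1.16% of its 50-base stretches with Cd200r4 or Gm17928.

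The genes closest in sequence family to Cd200r1 went the other way. Cd200r4 averaged 7.59 ± 1.78 CPM in deficient and 1.62 ± 0.428 CPM in regular cells (log2 fold change 2.14, adjusted p = 1.07e-05), and Cd200r3, an activating receptor of basophils and mast cells, 2.54 ± 1.23 CPM in deficient and 0.283 ± 0.361 CPM in regular cells (3.07, adjusted p = 0.00895). Of the 4 other members of the family listed, 2 were tested and both were higher, beside 29.4% of all genes. Cd200r3 had 197 counts over the deficient and 5 over the regular libraries. It passed the count filter through the deficient libraries and could come out only as higher, which limits this tally. Cd200r3 was also in the mast cell and basophil list, whose summed level was higher in deficient libraries as given above. Cd200, the ligand, averaged 293 ± 29.8 CPM in deficient and 153 ± 1.74 CPM in regular cells (0.85, adjusted p = 5.94e-07).

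Ecm1, extracellular matrix protein 1, is known in mice for letting TH2 cells leave lymph nodes. It ran from 0.834 to 3.45 CPM in deficient libraries with a median of 2.28 CPM, against 10.2, 13.3 and 7.27 CPM in regular libraries. The groups did not overlap, and as for Il1rl1 the 3 highest deficient libraries were 5, 6 and 7 (3.45, 2.53 and 2.7 CPM) and the lowest regular library was the one of batch 2. Means were 2.08 ± 0.910 CPM in deficient cells (SD, n = 7) and 10.3 ± 3.02 CPM in regular cells (SD, n = 3), 4.92-fold lower, with a log2 fold change of -2.40 (SE 0.337, edgeR adjusted p = 5.2e-05). It was -2.76 in batch 1, -1.54 in batch 2 and -3.16 without deficient libraries 5 to 7, and passed in each. The gene (ENSMUSG00000028108) lies at chromosome 3, 95734147 to 95739569, on the minus strand.

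In mice ECM1 is known to bind the IL-2 receptor chain CD122 and so to act on KLF2 and S1PR1, the transcription factor and the receptor of lymphocyte egress. Klf2 was lower in deficient cells, at 0.815 ± 0.423 CPM against 5.16 ± 0.751 CPM in regular cells (log2 fold change -2.78, adjusted p = 5.75e-06). S1pr1 was higher, at 40.7 ± 5.65 CPM in deficient against 11.7 ± 0.722 CPM in regular cells (1.72, adjusted p = 2.49e-08), as was Il2rb, which encodes CD122, at 281 ± 14.5 CPM in deficient against 198 ± 7.49 CPM in regular cells (0.42, adjusted p = 1.2e-05). Il2ra did not pass (-0.05, adjusted p = 0.643). Thus 2 of 4 genes were higher and 1 lower, beside 29.4% and 28.6% of all genes.

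Asb2 encodes the substrate-binding part of a ubiquitin ligase that is expressed in TH2 cells. It ran from 16.6 to 28.3 CPM in deficient libraries with a median of 20.2 CPM, against 85.0, 101 and 84.8 CPM in regular libraries. No deficient library came near the regular range, and libraries 5 to 7 did not stand out. Means were 21.3 ± 3.90 CPM in deficient cells (SD, n = 7) and 90.2 ± 9.21 CPM in regular cells (SD, n = 3), 4.24-fold lower, with a log2 fold change of -2.19 (SE 0.13, edgeR adjusted p = 2.46e-08). It was -2.26 in batch 1, -2.03 in batch 2 and -2.26 without deficient libraries 5 to 7. The gene (ENSMUSG00000021200) lies at chromosome 12, 103321142 to 103356001, on the minus strand.

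The 6 partners and substrates of the ASB2 ligase reported here were all tested, and 5 were higher and 1 lower, beside 29.4% higher and 28.6% lower over all genes. The filamin gene Flna, a known substrate, averaged 541 ± 31.4 CPM in deficient and 318 ± 12.2 CPM in regular cells (log2 fold change 0.68, adjusted p = 2.88e-07). The elongin genes Elob (0.71, adjusted p = 6.41e-07) and Eloc (0.42, adjusted p = 0.000238), the scaffold gene Cul5 (0.51, adjusted p = 5.51e-05) and Skp2 (0.55, adjusted p = 0.0102) were higher, and the RING subunit Rnf7 was lower (-0.72, adjusted p = 2.43e-06).

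**Figure D3:**
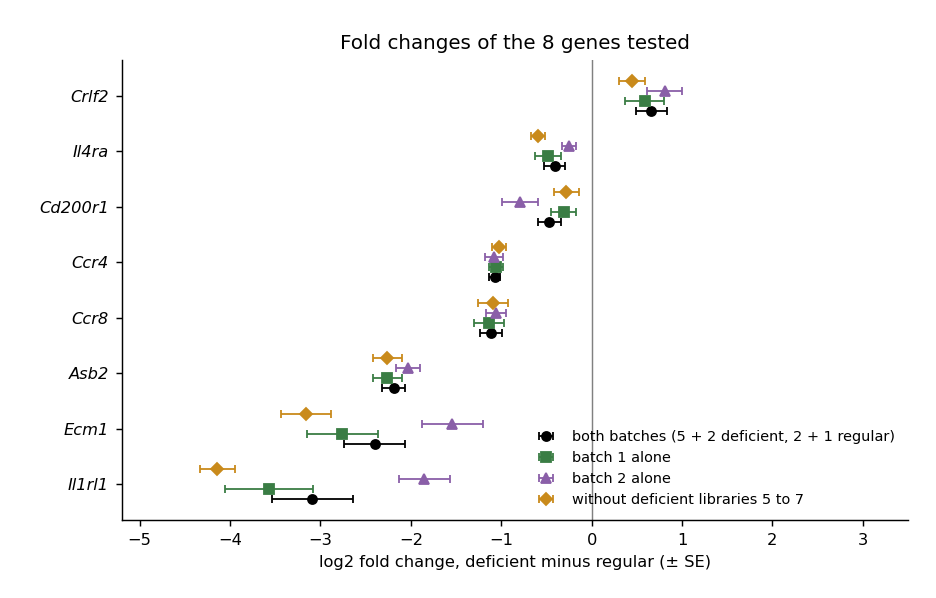
Log2 fold change of deficient over regular cells (horizontal axis, bars ± SE) for the 8 genes tested, in the fit of both batches (black), in batch 1 alone (green), in batch 2 alone (purple) and without deficient libraries 5 to 7 (orange). The orange fit compares deficient libraries 1 to 4 with regular libraries 1 and 2, since regular library 3 is then alone in batch 2. Ccr4, Ccr8 and Asb2 keep nearly the same value in every fit, whereas Il1rl1 spans -4.14 to -1.85 and Ecm1 -3.16 to -1.54, and the sign of each gene is the same in all 4 fits.

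The size of the difference varied between the batches most for Il1rl1 and Ecm1. The interaction of diet and batch was 1.70 on the log2 scale for Il1rl1 (SE 0.871) and 1.22 for Ecm1 (SE 0.687), and did not pass for any of the 8 genes (edgeR adjusted p between 0.947 and 0.993). Across all genes tested, 0 passed that test and 4.12% had an unadjusted p below 0.05. Batch itself passed for none of the 8 (adjusted p between 0.629 and 0.998), and for 0 of all genes, with 7.57% at an unadjusted p below 0.05. Batch 2 holds 1 regular library, so its values rest on the assumption that this library varies like the deficient ones.

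Levels were also compared between genes, as CPM per kb of exon. In deficient cells the order of these levels was Il4ra (47.6 ± 8.22), Ccr8 (33.9 ± 5.10), Ccr4 (20.1 ± 1.27), Crlf2 (18.8 ± 3.68), Asb2 (6.01 ± 1.10), Cd200r1 (4.53 ± 0.778), Ecm1 (0.826 ± 0.361) and Il1rl1 (0.409 ± 0.239 CPM per kb, SD, n = 7 each), followed by Il17rb at 0.0270 and Ptgdr2 at 0.0117. The library ranges overlapped between Il4ra and Ccr8, Ccr4 and Crlf2, Asb2 and Cd200r1, Ecm1 and Il1rl1, and Il17rb and Ptgdr2. Within libraries, however, Asb2 lay above Cd200r1 and Ecm1 above Il1rl1 in 7 of 7, Il4ra above Ccr8 in 6 of 7, Ccr4 above Crlf2 in 5 of 7 and Il17rb above Ptgdr2 in 4 of 7. In regular cells the order was Ccr8 (69.1 ± 3.25), Il4ra (59.8 ± 1.61), Ccr4 (39.5 ± 1.38), Asb2 (25.5 ± 2.60), Crlf2 (11.2 ± 1.52), Cd200r1 (5.77 ± 0.177), Ecm1 (4.07 ± 1.20) and Il1rl1 (3.40 ± 1.38 CPM per kb, SD, n = 3 each), followed by Il17rb at 0.0438 and Ptgdr2 at 0.0202. There the ranges overlapped only between Ecm1 and Il1rl1, of which Ecm1 was the higher in 3 of 3 libraries, and between Il17rb and Ptgdr2, of which Il17rb was the higher in 2 of 3. Asb2 thus stood below Crlf2 in deficient cells and above it in regular cells, and Il1rl1 remained the eighth of the 10 genes in both.

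**Figure D4:**
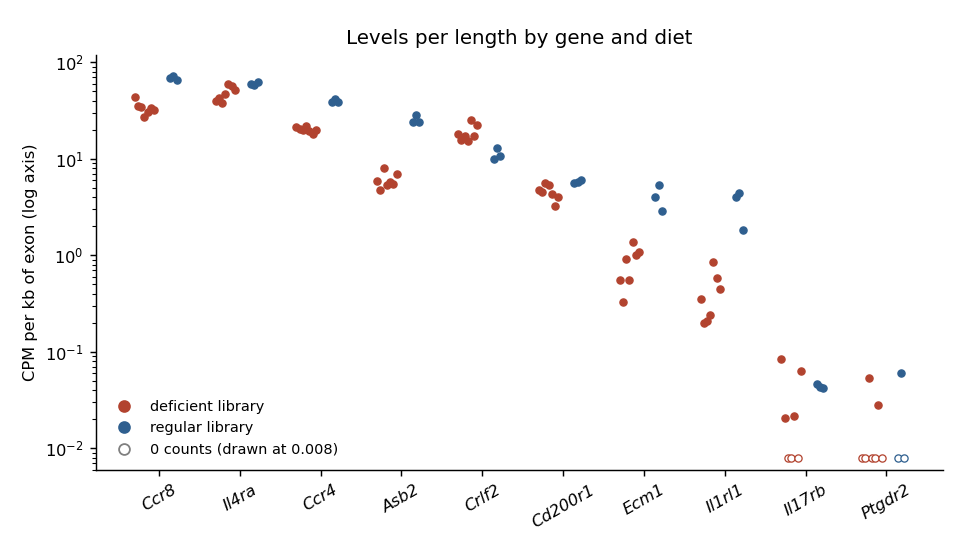
Level per exon length (CPM per kb, log axis) of the 10 genes in each deficient library (red, left in each pair) and regular library (blue, right), ordered by the mean in regular cells; open symbols at the bottom are libraries with 0 counts. Levels reach 72.2, Crlf2 is the gene in which the red points lie above the blue ones, and Il17rb and Ptgdr2 lie far below the other 8 genes.

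Ligand genes that could be tested were higher in deficient cells in 6 of 9 cases. Of 14 genes for ligands or the enzymes that make them, 5 were too low to test and 1 was lower, beside 29.4% higher and 28.6% lower over all genes. The median log2 fold change of the 9 tested was 1.21, and 0.02 for all genes. Ccl17, Ccl1 and Ptgs2 had 2, 1 and 3 counts over the regular libraries and passed the count filter through the deficient libraries. They could come out only as higher, so the tally and the median are in part set by the filter. Il13, one of the ligands of Il4ra, averaged 200 ± 38.1 CPM in deficient and 80.9 ± 17.0 CPM in regular cells (1.21, adjusted p = 0.000824), while Il4 had 16.5 ± 5.00 CPM in deficient and 15.1 ± 0.617 CPM in regular cells (0.05, adjusted p = 0.868). Ligand genes of CCR4 and CCR8 were low: Ccl17 had 201 counts over the deficient and 2 over the regular libraries, a ratio of 23.1 per total count (95% interval 6.32 to 192), and Ccl1 had 59 over the deficient and 1 over the regular libraries (13.6, interval 2.34 to 545). Ccl22 averaged 16.9 ± 9.98 CPM in deficient and 5.31 ± 7.46 CPM in regular cells (1.96, adjusted p = 0.0161), with overlapping libraries. Ccl8 had 0 counts in all 10 libraries. The alarmin genes were barely read: Il33 had 24 counts over the deficient and 3 over the regular libraries (ratio 1.84, interval 0.559 to 9.55), Tslp 13 over the deficient and 8 over the regular, and Il25 1 over each group.

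Enzymes of prostaglandin synthesis did not move together. Hpgds, which makes prostaglandin D2, averaged 1.24 ± 0.776 CPM in deficient and 4.56 ± 0.932 CPM in regular cells (log2 fold change -1.94, adjusted p = 0.00282). Ptgs2 had 111 counts over the deficient and 3 over the regular libraries, a ratio of 8.51 (95% interval 2.84 to 41.9), and Ptgs1 did not pass at 0.791 ± 0.703 CPM in deficient and 1.73 ± 0.604 CPM in regular cells (-1.30, adjusted p = 0.068). Among 8 other prostanoid receptor genes, 6 were tested, 1 was higher and 1 lower, beside 29.4% higher and 28.6% lower over all genes. The prostaglandin E2 receptor gene Ptger2 was lower, at 87.3 ± 8.01 CPM in deficient and 119 ± 11.6 CPM in regular cells (-0.53, adjusted p = 0.000162), and Ptger3 was higher, with 88 counts over the deficient and 3 over the regular libraries, a ratio of 6.75 (95% interval 2.24 to 33.4, edgeR adjusted p = 0.00461). Ptger4 (0.17, adjusted p = 0.751) and Ptgir (-0.30, adjusted p = 0.079) did not pass.

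Partner chains that pair with the receptors showed small differences. Of 7 listed, 5 were tested, 1 was higher and 2, Il7r and Il17ra, were lower, beside 29.4% higher and 28.6% lower over all genes. Il1rap, the shared chain with which ST2 signals, averaged 28.6 ± 3.0 CPM in deficient and 21.4 ± 0.560 CPM in regular cells (log2 fold change 0.33, adjusted p = 0.0109). Il2rg, the common gamma chain that pairs with the IL-4 receptor, did not pass (0.10, adjusted p = 0.377), nor did Sigirr, an inhibitory member of the IL-1 receptor family (-0.15, adjusted p = 0.0533). Il17rd, the other IL-17 receptor family gene tested, did not pass (-0.07, adjusted p = 0.905).

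Of 28 signal relay genes of these receptors, all tested, 14 were lower and 4 higher, beside 28.6% lower and 29.4% higher over all genes, with a median log2 fold change of -0.26. The kinase gene Jak2 averaged 1170 ± 131 CPM in deficient and 1840 ± 59.8 CPM in regular cells (-0.75, adjusted p = 2.03e-07). Socs5, an inhibitor of IL-4 receptor signalling, averaged 18.9 ± 1.52 CPM in deficient and 39.0 ± 0.501 CPM in regular cells (-1.13, adjusted p = 3.99e-08). Grk2, a kinase that desensitises chemokine receptors, was lower (-0.66, adjusted p = 3.1e-07), and so was Cish, a STAT5 feedback inhibitor (-0.62, adjusted p = 9.09e-07). Stat6, the transcription factor below Il4ra, stood at 146 ± 4.96 CPM in deficient and 144 ± 5.36 CPM in regular cells and did not pass (-0.06, adjusted p = 0.357), and neither did Stat3 (-0.06, adjusted p = 0.713).

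Of 13 other chemokine receptor genes of helper T cells, 8 were tested, 2 were higher and 2 lower, shares near the 29.4% higher and 28.6% lower of all genes. Those higher were Cxcr3, a TH1 receptor, at 3.23 ± 0.993 CPM in deficient and 0.214 ± 0.0829 CPM in regular cells (log2 fold change 3.80, adjusted p = 7.66e-06), and Ccr1, at 2.77 ± 0.550 CPM in deficient and 0.323 ± 0.153 CPM in regular cells (3.0, adjusted p = 1.66e-05). Cxcr3 and Ccr1 had only 4 and 6 counts over the regular libraries. Both passed the count filter through the deficient libraries and could come out only as higher. The lymph node homing receptor Ccr7 was lower, at 78.9 ± 15.1 CPM in deficient and 191 ± 12.0 CPM in regular cells (-1.36, adjusted p = 7.49e-05), and so was Cxcr4, at 5.34 ± 1.14 CPM in deficient and 16.2 ± 1.37 CPM in regular cells (-1.68, adjusted p = 3.69e-07). Cxcr6 (0.50, adjusted p = 0.186) and Ccr2 (0.85, adjusted p = 0.165) did not pass.

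Of 12 genes for transcription factors of the TH2 programme, 2 were higher and 3 lower, beside 29.4% higher and 28.6% lower over all genes, with a median log2 fold change of 0.04. Gata3 was lower, at 36.7 ± 3.95 CPM in deficient and 62.0 ± 4.49 CPM in regular cells (log2 fold change -0.84, adjusted p = 3.33e-06), as was the nuclear receptor gene Pparg, at 42.3 ± 13.3 CPM in deficient and 71.5 ± 6.80 CPM in regular cells (-0.91, adjusted p = 0.00312). Ikzf1 was also lower (-0.55, adjusted p = 1.51e-06) and Irf4 higher (0.34, adjusted p = 0.000108). Junb (0.07) and Nfil3 (0.10) did not pass (adjusted p = 0.477 for each).

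**Figure D5:**
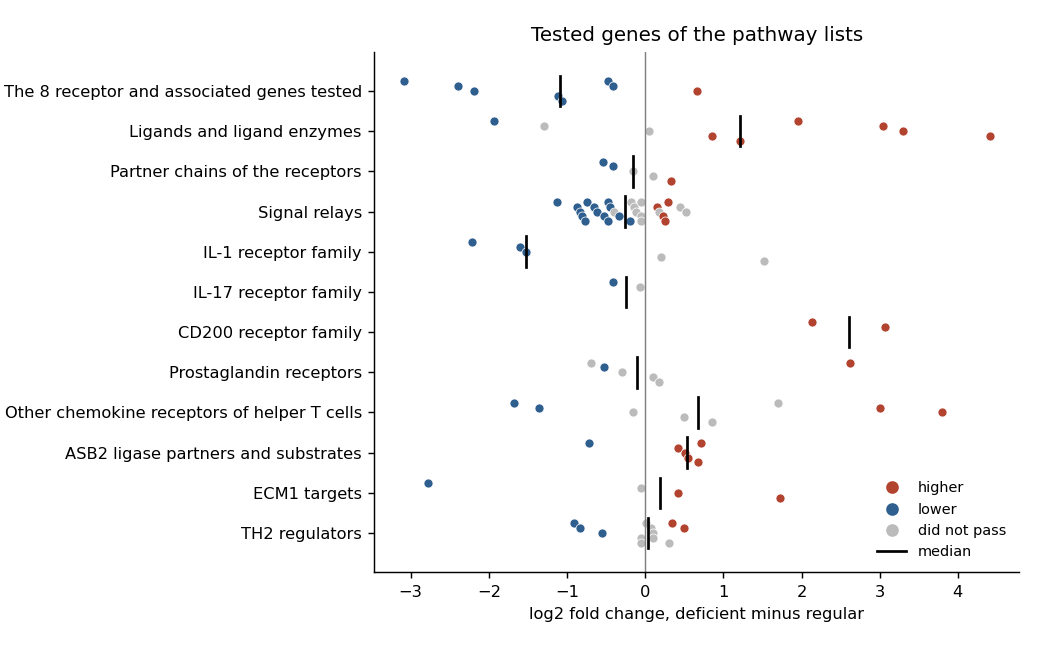
Log2 fold change of deficient over regular cells (horizontal axis) of each tested gene in the lists around the receptors, red where higher, blue where lower and grey where the test was not passed; the black bar is the list's median. The 8 receptor and associated genes have a median of -1.09 and the ligand list 1.21. The 28 signal relays have a median of -0.26, with 14 lower and 4 higher.

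Genes whose profiles over the 10 libraries were most like those of the receptors were found by the root mean square difference of log2 CPM, each centred on its own mean, among 12534 genes of at least 1 CPM. For Ccr4 they were Rasgrp1 (0.0513) and Hemk1 (0.0647), and for Il4ra Crybg1 (0.0441) and Dnajb6 (0.0703). Ccr8 was followed by Dot1l (0.108) and Inppl1 (0.109), Cd200r1 by Cep128 (0.0922) and Hist1h3f (0.095), and Crlf2 by 9330151L19Rik (0.115) and Mtmr7 (0.122). Profiles of the genes with the widest difference had no neighbour so near: the closest to Asb2 were Dusp10 (0.18) and Fyb (0.181), those to Ecm1 were Cma1 (0.331) and Pik3ip1 (0.348), and those to Il1rl1 were Sema4f (0.441) and Epas1 (0.474). Sema4f itself averaged 18.4 CPM in deficient and 126 CPM in regular cells.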

How the data were processed

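Per the labels' protocols, total RNA was isolated on day 5 and sequenced from a stranded, globin-depleted total RNA kit. The deposited table gives unnormalised read counts by Ensembl gene, with 1 column for each of 10 libraries. The submitters' processing notes name STAR 2.7.10a, HTSeq 0.13.5 and the GRCm38 build. Strand setting and annotation release of the counting: not given in the sources used here. Gene names and coordinates came from GENCODE release M21 (Ensembl 96), which matched 49412 of 49671 identifiers; the other 259 held 0.0226% of counts.

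Groups follow the treatment label. With edgeR 4.0.16 in R 4.3.3, low genes were removed by filterByExpr (minimum count 10), which left 13699, and counts were scaled by TMM and fitted with terms for diet and batch (glmQLFit, robust; common biological coefficient of variation 12.7%). Adjusted p-values are Benjamini-Hochberg over all genes tested, with a threshold of 0.05. A gene nearly absent from regular libraries could pass the count filter through the deficient libraries, and then come out only as higher. The tallies of lists and the shares over all genes include such genes. Fold changes are deficient minus regular, and CPM are on library totals. The 10 genes, the lists and the alternatives were chosen with earlier results of these data known. Named list genes are up to 4 past the threshold of smallest adjusted p and up to 2 of highest CPM that did not pass; Eloc, Skp2, Il33, Tslp, Il25, Ccl1, Ccl8, Ccl22, Ptgdr, Ptger3 and Ptgs2 are named besides, and 1 listed gene is not reported here. Intervals cover counting error only, since reads carry no molecular identifiers. Where a ratio is given for a gene with 3 or fewer counts in a group, it is the ratio of summed counts per total with a 95% interval; other such genes are given as counts. On simulated counts of 13699 genes for this comparison, the test recovered 33 of 67 genes altered 1.5-fold, 45 of 67 altered 2-fold and 60 of 66 altered 4-fold, and 9 of its 147 calls were false. Only those genes were altered and no batch difference was set, whereas 58.0% of the genes tested passed in the data. These rates may therefore not carry over. Figures were drawn with matplotlib 3.10.9. Alternatives covered scaling, filters, robust estimation, batch, DESeq2 1.42.0, limma-voom (limma 3.58.1), thinned counts, gene classes and libraries left out.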

Additional observations from a re-analysis of the deposited data

Results flagged for a closer look

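Il1rl2, which encodes an IL-36 receptor chain next to Il1rl1, had 1 library far from the others of its group. Deficient library 4 was at 4.14 CPM, whereas the other 6 deficient libraries lay between 1.44 and 2.53 CPM and the 3 regular libraries at 1.38, 2.40 and 2.17 CPM. Among 91 genes examined this way it was the 1 found, and whether this exceeds chance was not tested. Il1rl1 in the same library was at 1.64 CPM, within the range of its group.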

How the results depend on the processing

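The results were recomputed under 26 alternatives. All 8 genes tested kept their direction in each, and Il1rl1, Crlf2, Ccr4, Ccr8, Ecm1 and Asb2 also stayed past the threshold. Over the alternatives the log2 fold change ranged from -4.14 to -1.85 for Il1rl1, 0.45 to 0.81 for Crlf2, -1.08 to -0.96 for Ccr4, -1.20 to -1.01 for Ccr8, -3.16 to -1.54 for Ecm1 and -2.27 to -2.03 for Asb2. Cd200r1 did not pass in batch 1 alone (-0.31) or without deficient libraries 5 to 7 (-0.28). Both of these fits, and the one without regular library 3, take the diet difference from batch 1 libraries. With each library left out in turn, Cd200r1 ranged from -0.53 to -0.32 and Il4ra from -0.49 to -0.36, Cd200r1 missing the threshold without regular library 3 and Il4ra without regular library 1; the causes were not tested. Leaving out 1 library gave 6 to 7 of the 8 genes lower and 1 higher, and over all genes 3432 to 4107 higher and 3341 to 3988 lower. The diet by batch test called 4 genes lower with no count filter, against 0 with it. No paired analysis was possible because the labels carry no replicate numbers, and those used here follow accession order. The depth of the regular libraries limits what can be said of Il17rb, Ptgdr2 and the alarmin genes.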

Other observations

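Between the 8 genes tested, profiles over the 10 libraries were nearest for Ccr4 and Ccr8, with a root mean square difference of 0.176 on the log2 scale, and farthest for Il1rl1 and Crlf2, at 1.80. Il1rl1 was nearest to Ecm1 (0.535), and Ecm1 in turn was nearer to Asb2 (0.446). These values describe the same 10 libraries as the comparison between diets and were not tested.

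Further genes of the TH2 and CD4 marker list were read as follows. Il5, which encodes the eosinophil growth factor, was at 28.7 CPM in deficient and 15.4 CPM in regular cells (log2 fold change 0.84, edgeR adjusted p = 0.0302). Cd3e, part of the T cell receptor complex, was at 27.9 CPM in deficient and 53.8 CPM in regular cells (-1.04, adjusted p = 2.73e-07), while Cd3d did not pass (-0.13, adjusted p = 0.0705). Over the whole list of 8 genes, 2 were higher and 3 lower, beside 29.4% higher and 28.6% lower over all genes.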
